A study of Mus musculus with 2 samples.

Results

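Cathepsins are proteases that cells make as inactive precursors and send to the acidic lysosome, where they degrade proteins, and some are also secreted and act on the extracellular matrix. Most belong to the papain family of cysteine proteases, and a few are aspartic or serine proteases. In tumours they are known from macrophages, cancer cells and fibroblasts, and single members serve particular cells, such as cathepsin W in cytotoxic lymphocytes and cathepsin K in bone-resorbing osteoclasts. The genes described here are the 10 rows of the count table with the symbols Ctsa, Ctsb, Ctsc, Ctsd, Ctse, Ctsh, Ctsk, Ctsl, Ctsw and Ctsz, out of 35602 gene symbols. They were chosen by name, and all 10 were present and passed the count minimum of 20 over both libraries.

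Messenger RNA of mouse breast tumour tissue was sequenced from 1 library of the group injected intraperitoneally with a PD-1 inhibitor and from 1 library of the group given that injection plus acupuncture. Both groups therefore received the PD-1 inhibitor, and neither library came from untreated tissue. The sources used here do not give the strain, age, tumour model, dose or time, nor whether a library came from 1 animal or a pool. With 1 library per group there was no replicate check, no test between groups was possible, and every interval is an exact 95% interval of counting error only. No molecular identifiers are stated, so reads may be PCR copies of one molecule, and variation between animals is not covered either.

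The totals were 105728292 counts for the library without acupuncture, called PD-1-only here, and 60752043 for the acupuncture library. Levels are counts per 1000000 (CPM) of library sizes scaled by the TMM method, and ratios divide the acupuncture level by the PD-1-only level. Genes are called higher or lower where the ratio reached 2-fold in either direction and its interval excluded 1. Of the 18687 genes counted, meaning those with 20 or more counts over both libraries, 9.07% were higher and 4.98% were lower, and the median log2 ratio over all of them was -0.02. The libraries also stood apart in tissue markers. In the acupuncture library, 8 of 8 B cell markers, 6 of 6 lymph node stroma markers, 8 of 8 adipocyte markers and 8 of 8 skeletal muscle markers were higher, with median log2 ratios of 6.36, 5.54, 2.07 and 3.29. Of 10 neutrophil markers 7 were lower, with a median of -2.19. The median was -0.58 for the 9 epithelial markers and -0.35 for the 12 macrophage markers. In bulk tissue, fewer cells of a type and less RNA per cell cannot be told apart. The part of tissue content in the cathepsin ratios was not tested.

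Promoter sequence was at hand in RefSeq for 6 of the 10 genes, Ctsa, Ctsc, Ctsd, Ctsk, Ctsl and Ctsz, in windows from 250 bases before to 50 bases after a start site. Each window was searched on both strands for CACGTG, the core of the element that TFEB and TFE3, regulators of lysosomal genes, are known to bind, and for GAGGAAG, a sequence of the type bound by the myeloid factor PU.1. The motifs share no bases in these windows. CACGTG was found in 3 of the 6 genes (Ctsa, Ctsd and Ctsl), beside 7.15% of all 32851 RefSeq windows of that length. For Ctsa it was in the window of start site 2, while the window of start site 1 held neither motif. For both motifs a gene was counted if any of its windows matched, whereas the share over all is per window, which is an unlike measure. GAGGAAG was found in 2 (Ctsc and Ctsk), beside 13.6% of all windows, and Ctsz held neither motif. In Ctsc both matches, and in Ctsk 1 of 2, are the reverse complement CTTCCTC. A further CACGTG in Ctsa lies after its start site 2 and is not shown. The matches are shown in capitals because they divide the genes at hand into groups that share letters. They are given 5′ to 3′ on the gene's strand, as the surrounding 30 bases or, for Ctsk, the only one of the 6 that was listed as higher, as the whole 250 bases before the start. A match describes these letters and is not a binding site. Positions are on GRCm38.p6, which is not the assembly of the counts.
Ctsa, chr2:164833743-164833772, plus strand: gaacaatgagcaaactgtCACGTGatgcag
Ctsd distal, chr7:142388048-142388077, minus strand: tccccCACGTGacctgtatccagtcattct
Ctsd proximal, chr7:142387908-142387937, minus strand: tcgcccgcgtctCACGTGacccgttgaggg
Ctsl, chr13:64370739-64370768, minus strand: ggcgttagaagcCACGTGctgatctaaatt
Ctsc distal, chr7:88277876-88277905, plus strand: gccactttccttCTTCCTCctagtggtgcc
Ctsc proximal, chr7:88277923-88277952, plus strand: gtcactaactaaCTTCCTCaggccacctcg
Ctsk, chr3:95498960-95499209, plus strand: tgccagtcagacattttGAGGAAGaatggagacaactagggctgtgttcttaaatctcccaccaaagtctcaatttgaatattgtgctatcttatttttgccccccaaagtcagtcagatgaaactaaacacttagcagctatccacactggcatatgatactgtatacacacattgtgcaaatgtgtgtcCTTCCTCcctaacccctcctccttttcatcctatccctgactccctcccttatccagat

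Under TMM scaling the 10 cathepsins chosen divided by direction. Of the 10 genes, 3 were higher with acupuncture, Ctsw, Ctse and Ctsk, beside 9.07% of all genes counted. These had the fewest counts of the 10 in both libraries and the lowest levels per length of the best-supported transcript. They were not 1 set by abundance. Per kilobase, Ctsk with acupuncture (61.7 CPM) lay nearer to Ctsa (83.6) than to Ctsw (6.97). None was at least 2-fold lower, beside 4.98% of all genes. Under TMM scaling the 7 abundant members stood at 0.552 to 0.956 times their PD-1-only level, whereas with the epithelial markers set to a median of 0 Ctsl was the only member below 1. The interval under TMM lay below 1 for those 7, as it did for 36.1% of all genes counted, and above 1 for the other 3, as for 33.8%. The median log2 ratio of the 10 was -0.24. Their counts summed to 540016 in the PD-1-only library and 254807 with acupuncture, which is 0.511% and 0.419% of all counts, and the ratio of the summed CPM was 0.757.

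**Figure D1:**
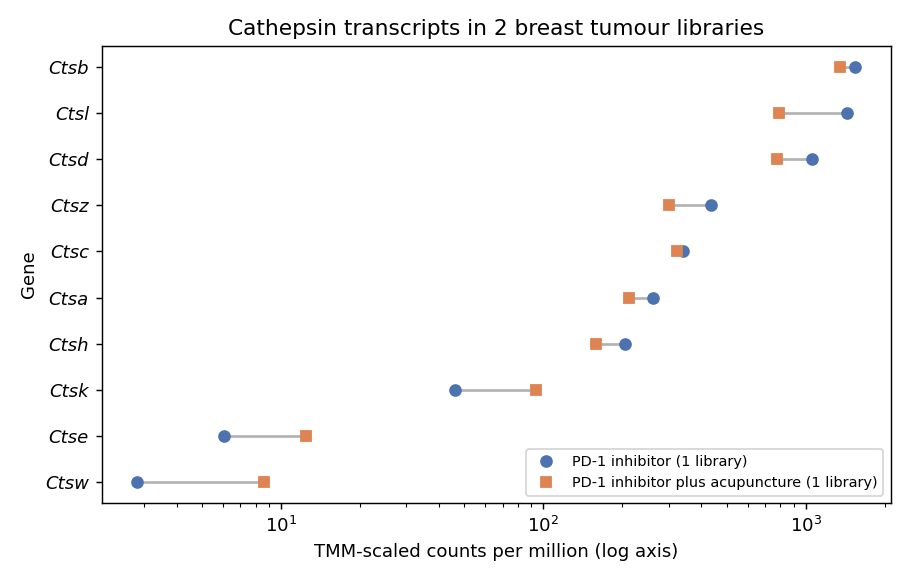
Level of each cathepsin in TMM-scaled CPM (log axis), as a circle for the PD-1-only library and a square for the acupuncture library, 1 library each. The 7 genes at 159 CPM or more have the square to the left of the circle under this scaling, though all but Ctsl cross over with the epithelial markers set to a median of 0, and Ctsk, Ctse and Ctsw have it to the right.

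The size of a ratio near 1 depended on how the libraries were scaled. Scaling by total counts moved the median log2 ratio of all genes by 0.12, and setting the macrophage markers or the epithelial markers to a median of 0 moved it by 0.34 and 0.58. With total counts Ctsc passed to the other side of 1, at a log2 ratio of 0.05. With the macrophage markers at 0, Ctsd, Ctsh, Ctsl and Ctsz were the 4 members below 0, and with the epithelial markers at 0 Ctsl was the only one. The median of the 10 was then 0.10 and 0.34. Ctsk, Ctse and Ctsw were higher under each of these scalings. Of the genes listed, 64.5% were higher under TMM, 83.2% with the macrophage markers at 0 and 91.6% with the epithelial markers at 0.

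**Figure D2:**
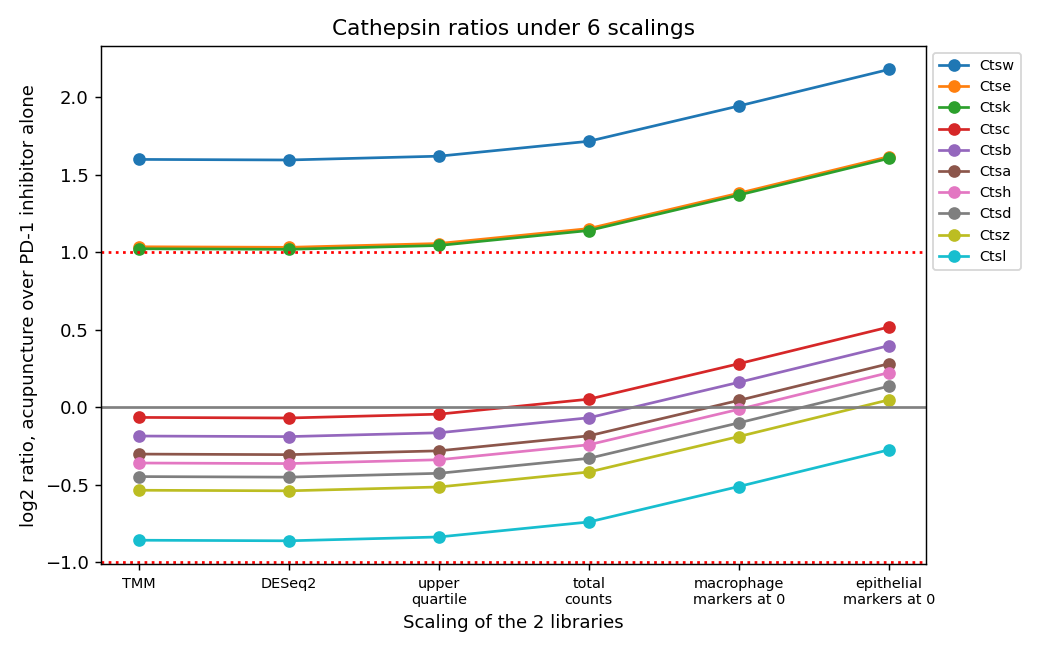
Log2 ratio of each cathepsin, acupuncture over PD-1-only, under 6 ways of scaling the libraries, with dotted lines at the 2-fold limits. Scaling moves all genes together, so Ctsl has the lowest ratio of the 10 (-0.86 under TMM and -0.27 with the epithelial markers at 0) and Ctsw the highest.

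Among the endopeptidases of the lysosome, Ctsl showed the lowest ratio of the 10. Cathepsin L is a strong endopeptidase of the lysosome that in the thymus also trims the invariant chain of MHC class II. Ctsl had 145640 counts in the PD-1-only library and 50119 with acupuncture, or 1435 and 792 CPM. This was 0.552 times its PD-1-only level (0.546 to 0.558), a ratio above that of 6.54% of all genes counted. Ctsl did not reach the 2-fold limit, and with a 1.5-fold limit it was the 1 member listed as lower, beside 10.8% of all genes. Exons of Gm47123 on the opposite strand overlap 1742 of the 6168 bases of the annotated Ctsl exons, and those of Gm49230 on the same strand overlap 395. Reads in the same-strand stretch cannot be told apart, nor, since the strand setting of the counts is not given, those in the other.

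Ctsb and Ctsd, the other abundant endopeptidases, had ratios above that of Ctsl, an order that scaling does not change. Under TMM they were also nearer to 1. With the epithelial markers set to a median of 0, Ctsb was further from 1 than Ctsl, at log2 ratios of 0.40 and -0.27. Cathepsin B cuts within proteins and also takes dipeptides from their ends. Ctsb had 155779 and 85416 counts, or 1535 and 1350 CPM, a ratio of 0.88 (0.872 to 0.887). Cathepsin D is the main aspartic protease of the lysosome. Ctsd had 107165 and 49018 counts, or 1056 and 775 CPM, a ratio of 0.734 (0.726 to 0.742). The intervals of Ctsl, Ctsd and Ctsb did not overlap one another, so these members of 1 compartment had unequal ratios beyond counting error. Part of Ctsb, 774 of 4743 exonic bases, overlaps Fdft1 on the opposite strand, and part of Ctsd, 670 of 2127 exonic bases, overlaps Gm49369 on its own strand.

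The balance of Ctsb and Ctsl within each library does not depend on scaling. Ctsb had 1.07 times the counts of Ctsl in the PD-1-only library and 1.70 times with acupuncture. As a share of the counts of the 10 cathepsins, Ctsl made up 27.0% (exact binomial interval 26.9 to 27.1) in the PD-1-only library and 19.7% (19.5 to 19.8) with acupuncture. Ctsb made up 28.8% (28.7 to 29.0) and 33.5% (33.3 to 33.7). The share of Ctsd was nearly level, at 19.8% (19.74 to 19.95) and 19.2% (19.1 to 19.4). Ctsk, a small part of the family, had 0.863% (0.839 to 0.889) and 2.32% (2.26 to 2.38).

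**Figure D3:**
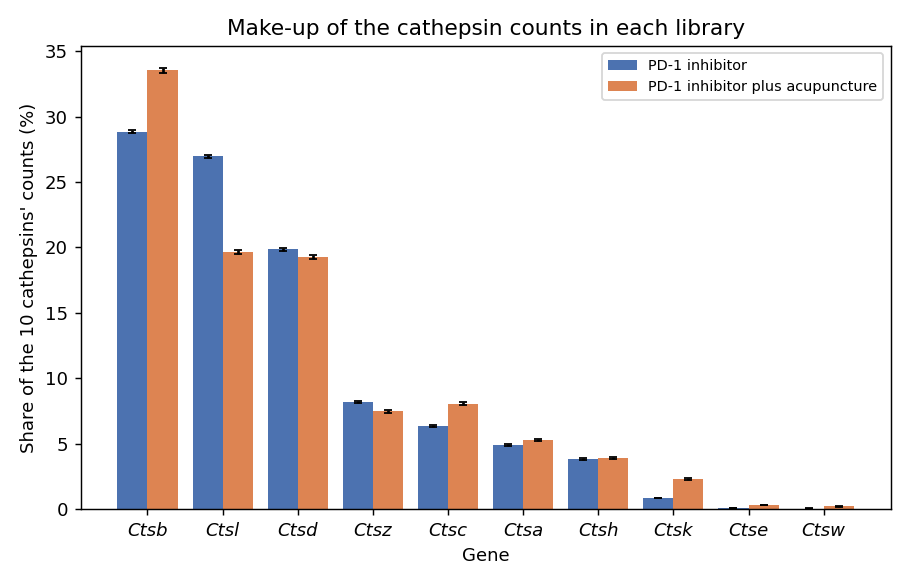
Share of the summed counts of the 10 cathepsins taken by each gene in each library, in percent, with bars from 0 and exact binomial 95% intervals. The Ctsl bar is at 27.0% in the PD-1-only library and 19.7% with acupuncture, and the Ctsb bar is at 28.8% and 33.5%.

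The ratios of the exopeptidases under TMM lay between that of Ctsl and 1. Cathepsin Z removes single residues from the carboxyl end of proteins, and is abundant in myeloid cells. Ctsz had 44229 and 19031 counts, or 436 and 301 CPM, a ratio of 0.69 (0.679 to 0.702). Cathepsin H acts mainly as an aminopeptidase, and Ctsh had 20714 and 10067 counts, or 204 and 159 CPM, a ratio of 0.78 (0.761 to 0.798). Cathepsin A is a serine carboxypeptidase that also shields the lysosomal enzymes Neu1 and Glb1 from degradation. Ctsa had 26509 and 13408 counts, or 261 and 212 CPM, a ratio of 0.811 (0.795 to 0.828). The enzymes it protects had like ratios, 0.801 (0.754 to 0.85) for Neu1 and 0.83 (0.797 to 0.865) for Glb1. The likeness is not particular to them. Other lysosomal genes also had such ratios, Dnase2a at 0.816 and Atp6v0d1 at 0.804 among them, while Gusb stood at 0.999. Of the annotated Ctsa exons, 495 bases overlap Pltp and 324 overlap Neurl2 on the opposite strand.

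Ctsc had the ratio nearest to 1 under TMM scaling. With the macrophage markers set to a median of 0 it was Ctsh, at a log2 ratio of -0.01. With the epithelial markers at 0 it was Ctsz, at 0.05. Cathepsin C, or dipeptidyl peptidase I, activates granule serine proteases of cytotoxic lymphocytes, neutrophils and mast cells by removing a dipeptide. Ctsc had 34416 and 20508 counts, or 339 and 324 CPM, a ratio of 0.956 (0.939 to 0.973). Of 9 granule protease genes counted, 2 were higher and 0 lower, beside 9.07% and 4.98% of all genes, and the median log2 ratio was -0.02. That median is the value of the neutrophil protease Elane, which had only 13 and 8 counts (0.987 times, 0.355 to 2.57). Prtn3, also of neutrophils, stood at 0.851 times (0.692 to 1.04) with 279 and 148 counts. The lymphocyte granzymes Gzma and Gzmk were higher, at 2.47-fold (2.16 to 2.84) and 4.56-fold (3.35 to 6.28). Gzmb was at 1.89 times its PD-1-only level (1.71 to 2.10). The mast cell proteases Tpsb2, Cma1 and Mcpt4, which resemble other proteases of their families, stood at 0.616, 0.879 and 0.747 times, and the mast cell carboxypeptidase Cpa3 at 1.07 times (0.986 to 1.16).

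Ctsw had the highest ratio of the 10. Cathepsin W is a papain-family protease found mainly in cytotoxic T cells and NK cells. Ctsw had 288 counts in the PD-1-only library and 547 with acupuncture, or 2.84 and 8.64 CPM. It was 3.05-fold higher (2.64 to 3.53), a ratio above that of 95.4% of all genes counted. In the same library 10 of 10 T cell markers counted were higher, with a median log2 ratio of 2.63 and a summed level of 26.9 and 152 CPM, and none was at 0. Of 7 NK cell markers counted 4 were higher, with a median of 1.19 and a summed level of 12.5 and 31.0 CPM, and Klra4 and Klra8 were at 0 in both libraries. The log2 ratio of Ctsw, 1.60, lay between these medians. Nkg7, a granule protein of cytotoxic lymphocytes, was 4.70-fold higher (4.04 to 5.47), the highest ratio of the NK cell markers counted. The lowest was that of Prf1, at 1.30 times its PD-1-only level (1.10 to 1.54). The part of lymphocyte content in the Ctsw ratio was not tested.

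Ctsk was just past the 2-fold limit. Cathepsin K cleaves fibrillar collagen and is made by osteoclasts, and also by fibroblasts of tumour stroma. Ctsk had 4663 and 5908 counts, or 45.9 and 93.4 CPM, and was 2.03-fold higher (1.96 to 2.11), a ratio above that of 91.3% of all genes counted. Its interval included 2. Genes shared with osteoclasts went both ways. Of 8 counted, 2 were higher and 2 lower, beside 9.07% and 4.98% of all genes. Those higher were Dcstamp at 2.06-fold (1.62 to 2.64) and Oscar at 3.99-fold (2.72 to 5.94). Mmp9 was 2.51-fold lower (2.45 to 2.57) and Itgb3 2.33-fold lower (2.22 to 2.44). With the macrophage or the epithelial markers set to a median of 0, none of the 8 was lower, and with the deeper library thinned 1 of the 8 was higher. Calcr, the calcitonin receptor that marks osteoclasts, had 9 and 10 counts. Of 9 fibroblast markers 1 was higher, the protease Fap at 2.31-fold (2.14 to 2.49). Their median log2 ratio was 0.33 and their summed level was 7499 and 10027 CPM, with none at 0. The other 8 ranged from 0.846 times for the receptor Pdgfrb (0.81 to 0.882) to 1.81 times for the matrix proteoglycan Dcn (1.77 to 1.84). The collagen genes Col3a1 and Col1a1, with the most counts, stood at 1.56 and 0.994 times. All 8 adipocyte markers were higher too, with a median log2 ratio of 2.07, the lowest being Lipe at 2.02-fold (1.93 to 2.12). The part of fibroblast, osteoclast or adipocyte content in the Ctsk ratio was not tested.

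Ctse was also just past the limit, with fewer counts. Cathepsin E is an aspartic protease of endosomes, known from the stomach lining, the skin and cells of the immune system. Ctse had 613 and 785 counts, or 6.04 and 12.4 CPM, and was 2.05-fold higher (1.85 to 2.29). With the deeper library thinned to the depth of the shallower one in 1 random draw, its log2 ratio of 1.04 became 0.95 and it was no longer listed. Its interval included 2, so another draw might list it. None of 7 genes of the stomach lining had more than 6 counts in either library, and Tff1, Tff2, Gkn2 and Muc5ac were at 0 in both. Of 9 dendritic cell markers 2 were higher, with a median log2 ratio of 0.22 and a summed level of 138 and 171 CPM, none at 0. The B cell markers, with a summed level of 1.94 and 114 CPM, were also higher after acupuncture, and Fcmr among them was at 0 in the PD-1-only library. Their part in the Ctse ratio was not tested.

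**Figure D4:**
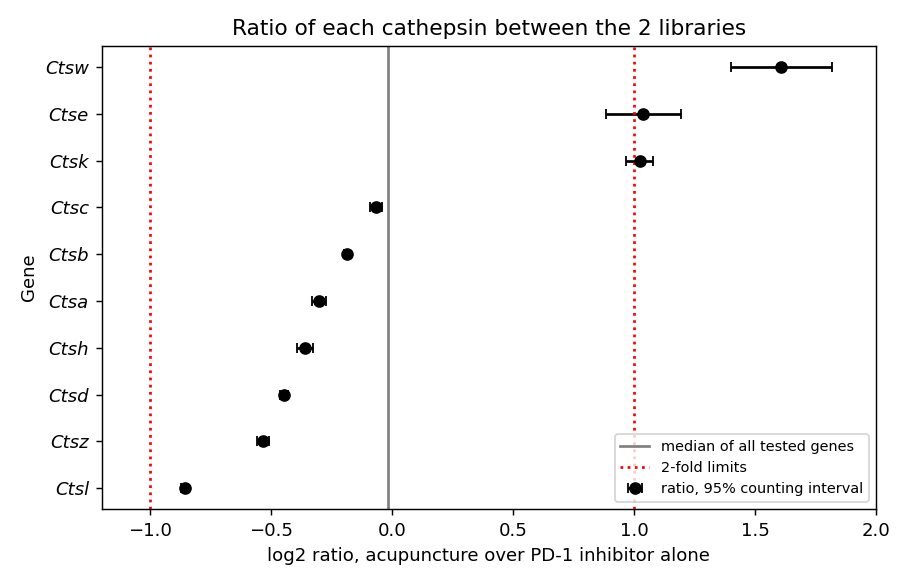
Log2 ratio of each cathepsin, acupuncture over PD-1-only, with exact 95% counting intervals, the median of all genes counted (grey line) and the 2-fold limits (dotted lines). Ctsw lies past the upper limit with its whole interval, the intervals of Ctse and Ctsk span it, and the other 7 genes lie between -0.86 and -0.07 under TMM, of which all but Ctsl pass above 0 with the epithelial markers set to a median of 0.

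By likeness of log2 ratio over the 2 libraries, the related genes nearest to Ctsk and to Ctse were Dcstamp, a fusion protein of osteoclasts and dendritic cells, and Cst7. They differed from Ctsk by 0.01 and 0.06 and from Ctse by 0.005 and 0.05. Nearest to Ctsw were Atp6v0d2 and Sort1, which differed from it by 0.12 and 0.23. With 2 libraries the likeness rests on 1 ratio per gene.

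Per length of transcript, the order of the abundant members was alike in both libraries. Levels per kilobase, in CPM per kilobase of the best-supported GENCODE transcript, were 728 and 402 for Ctsl, 496 and 364 for Ctsd, 324 and 285 for Ctsb and 302 and 209 for Ctsz. Ctsh, Ctsc and Ctsa followed, at 126, 105 and 103 in the PD-1-only library and 98.4, 101 and 83.6 with acupuncture. The counting intervals of Ctsc and Ctsa overlapped in the PD-1-only library, and those of Ctsc and Ctsh with acupuncture. Ctsk followed at 30.4 and 61.7, and Ctse and Ctsw came last, at 2.84 and 2.29 in the PD-1-only library and in the opposite order, at 5.84 and 6.97, with acupuncture. The places of Ctsl and Ctsa rested on the transcript chosen. With the longest annotated transcript Ctsl stood at 233 and 128 CPM per kilobase, below Ctsz, and Ctsa at 71.6 and 58.1, which with acupuncture is below Ctsk.

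The 4 other cathepsin genes counted were all between the limits under TMM, whereas 1 was higher with the macrophage markers set to a median of 0 and 2 with the epithelial markers at 0. Ctss, the protease that trims the invariant chain in dendritic cells, B cells and macrophages, had 37534 and 18037 counts, or 370 and 285 CPM, a ratio of 0.771 (0.757 to 0.785). Ctsf, a papain-family member found in many tissues, had 765 and 674 counts, a ratio of 1.41 (1.27 to 1.57). Ctso, another papain-family member, had 3448 and 2243 counts, fewer than Ctsk, and a ratio of 1.04 (0.989 to 1.10). Ctsg, a serine protease of neutrophil granules, had 16 and 17 counts and the highest ratio of the 4, at 1.70. Its interval (0.81 to 3.60) was too wide to place it. Ctsg was the 1 gene listed with the macrophage markers at 0, so that call rests on these few counts.

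Class II peptide loading genes had higher ratios than Ctss and Ctsl, an order that scaling does not change. All but the regulator Ciita work in the same compartment as these proteases. Of 9 counted, 3 were higher and 0 lower, beside 9.07% and 4.98% of all genes, and the median log2 ratio was 0.76. With the macrophage markers set to a median of 0, or with a 1.5-fold limit, 5 were higher, and with the epithelial markers at 0, 6. The invariant chain Cd74 stood at 1.18 times its PD-1-only level (1.16 to 1.19) and the class II chain H2-Aa at 1.40 times (1.37 to 1.42). Those higher were the master regulator Ciita at 2.46-fold (2.33 to 2.59) and the B cell genes H2-Oa at 6.004-fold (4.81 to 7.55) and H2-Ob at 16.6-fold (12.9 to 21.7). That library was also the one with higher B cell markers.

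The inhibitors of cysteine cathepsins with the most counts had ratios below 1 under TMM scaling, which like those of the enzymes depend on the scaling, and those with few counts went both ways. Cystatin C, Cst3, the main secreted inhibitor, had 43331 and 22962 counts and a ratio of 0.85 (0.837 to 0.864), and the cytosolic inhibitor Cstb had a ratio of 0.733 (0.713 to 0.755). Cst7, or cystatin F, which restrains cathepsin C in lymphocytes and other immune cells, had 167 and 222 counts and was 2.13-fold higher (1.74 to 2.62). Of 7 inhibitors counted, 1 was higher and 2 were lower, beside 9.07% and 4.98% of all genes. Stfa2l1, with 354 and 16 counts, was 13.8-fold lower (8.38 to 24.4). Stfa2, with 153 and 0 counts, was at least 25.5-fold lower by its 95% interval. With its 0 set to a floor of 3 counts, Stfa2 was 31.8-fold lower. Reads may be divided wrongly between these near-identical stefins. Neutrophil markers, summed to 221 CPM in the PD-1-only library and 26.0 with acupuncture with none at 0, were lower in the same library, and their part was not tested.

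Genes that sort and activate cathepsins were mostly between the limits, as were 16062 of all 18687 genes counted. Of 12 counted, 1 was higher and 0 lower, beside 9.07% and 4.98% of all genes, and the median log2 ratio was -0.20. Sort1, a receptor that carries some hydrolases to the lysosome, was 2.58-fold higher (2.34 to 2.85) at 655 and 1054 counts. Lgmn, an asparaginyl protease that processes cathepsins to their mature forms, had a ratio of 0.753 (0.742 to 0.765). Psap and Grn, with the most counts of the list, give rise to lysosomal cofactors and stood at 0.72 (0.714 to 0.727) and 0.915 times (0.903 to 0.927).

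Other lysosomal genes were nearly all between the limits, where 16062 of all 18687 genes counted also lay. Of 28 hydrolases other than cathepsins none was listed in either direction, with log2 ratios from -0.93 to 0.31 and a median of -0.05. Gusb, the lysosomal beta-glucuronidase, stood at 0.999 times (0.975 to 1.02). Of 12 lysosomal membrane proteins none was listed, with a median of -0.17, and those with the most counts, Cd63 and Lamp1, stood at 0.608 and 0.892 times. Of 18 subunits of the V-ATPase, the pump that acidifies the lysosome, 1 was higher, with a median of -0.21. That was Atp6v0d2, the form of osteoclasts and some macrophages, at 3.33-fold (2.69 to 4.15) and 127 and 264 counts, while Tcirg1 and Atp6ap1, with the most counts, stood at 0.873 and 0.863 times. Of 5 regulators of lysosomal genes none was listed, and Tfeb and Tfe3 stood at 0.906 (0.828 to 0.992) and 0.788 times (0.756 to 0.821) and Zkscan3, a repressor of such genes, at 1.04 times (0.99 to 1.10). Over all 10 lists of related genes, 10 of 112 genes counted were higher and 4 lower, beside 9.07% and 4.98% of all genes.

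**Figure D5:**
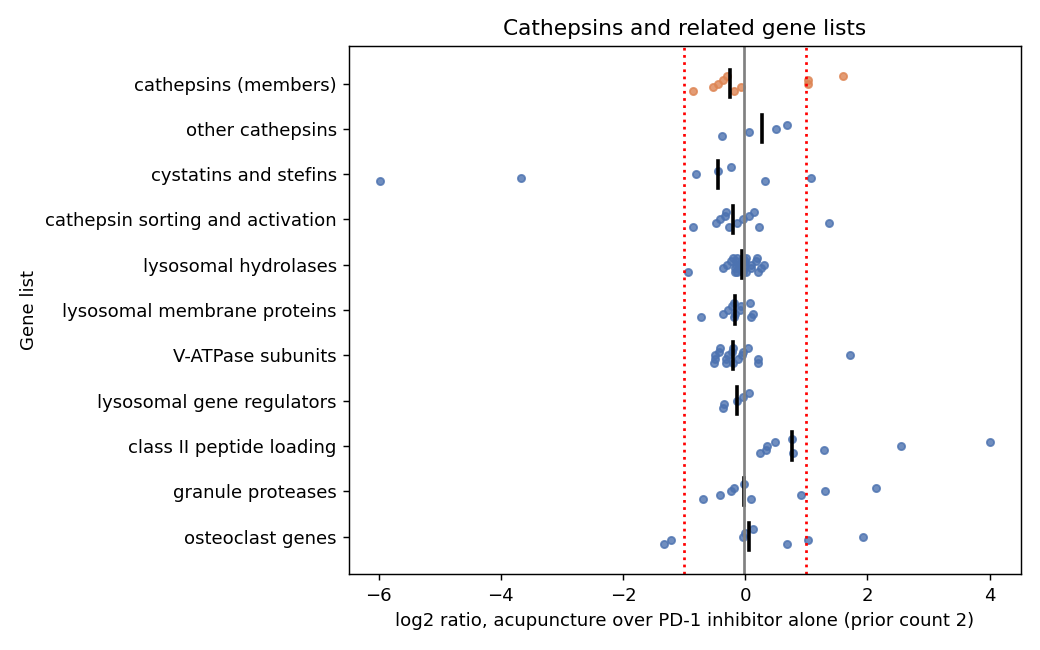
Log2 ratio of each gene counted, acupuncture over PD-1-only with a prior count of 2, for the 10 cathepsins (orange) and 10 lists of related genes (blue), with list medians as black bars, the median of all genes in grey and the 2-fold limits dotted. The lysosomal hydrolases lie between -0.93 and 0.31 and the cathepsins between -0.86 and 1.60. The V-ATPase subunits reach up to 1.72 and the genes that sort and activate cathepsins to 1.36, while the lysosomal membrane proteins end at 0.13.

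The 12 macrophage markers had a summed level of 3176 CPM in the PD-1-only library and 2537 after acupuncture, a ratio of 0.799, beside 0.757 for the summed cathepsins. None was at 0, and 1, the efferocytosis receptor Mertk, was lower, at 2.31-fold (2.07 to 2.58). Apoe, which had most counts among them, supplied 1270 and 963 CPM of that sum and was at 0.758 times its PD-1-only level (0.751 to 0.766). Single markers ran from 0.433 times for Mertk to 1.15 times for Fcgr1. The 9 epithelial markers had a summed level of 3988 and 2668 CPM, with none at 0 and 3 lower. The ratios of Ctsd (0.734), Ctsz (0.69) and Ctsl (0.552) lay below that of the summed macrophage markers, and those of Ctsb and Ctsc above it. The interval of Ctsa (0.795 to 0.828) included it, and that of Ctsh (0.761 to 0.798) ended just under it. The part of macrophage and epithelial content in these ratios was not tested.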

How the data were processed

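The table that the authors deposited holds unnormalized read counts, a whole number for each gene symbol in each library. RNA was prepared on columns and turned into libraries with a SMARTer kit for messenger RNA, per the labels' protocols. The submitters' processing notes name the builds GRCm39 and mm39. The sources used here name no aligner, counting program or strand setting.

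Library sizes (105728292 and 60752043 counts) were scaled by TMM (edgeR 4.0.16, R 4.3.3), with factors of 0.96 for the PD-1-only library and 1.04 for the acupuncture library. Ratios of CPM carry exact Clopper-Pearson 95% intervals of the split of the combined count, log2 ratios a prior count of 2. Genes were listed at 2-fold with an interval excluding 1, among those with a combined count of at least 20. With 1 library per group no p-value was computed. Lengths are from GENCODE M21. Promoters are from RefSeq on GRCm38.p6. No protein sequences were used here. Python 3.11.15 with scipy 1.17.1 was used, and the calculation was tested on simulated data.

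The members and the 10 related lists and 12 marker lists were chosen with earlier results of these data known. Named genes are all members, the other cathepsins, and of each related list up to 4 listed genes and the 2 most abundant, with further genes chosen after their values were seen. A gene that this rule names is not reported here. Other scalings (DESeq2 1.42.0 size factors among them), prior counts, count minimums, fold limits and thinning were tried as alternatives.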

Additional observations from a re-analysis of the deposited data

How the results depend on the processing

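No paired analysis was possible because each group had 1 library, and no library could be left out. Ctsk and Ctsw were higher under every scaling and count minimum tried and in the 1 random thinning drawn, where Ctse was lost (2 of 10 higher). The intervals of Ctse and Ctsk included 2-fold, so another draw might give other calls for them. With a 4-fold limit 0 of 10 cathepsins were higher, since the limit lies above their ratios, and with a 1.5-fold limit 1 was lower. Over the related lists together, 10 genes were higher and 4 lower. These became 17 and 2 with the epithelial markers at a median of 0, 15 and 2 with the macrophage markers at 0, 14 and 8 with a 1.5-fold limit, and 3 and 2 with a 4-fold limit. Over all genes, 1694 were higher and 931 lower. These became 3730 and 344 with the epithelial markers at 0, 2563 and 517 with the macrophage markers at 0, 1038 and 511 with a combined count of at least 100, 2603 and 2026 with a 1.5-fold limit, and 672 and 266 with a 4-fold limit. Of 90 recomputed ratios of single cathepsins, 31 moved past their counting interval, all of them of the 7 members not listed. The 3 listed members were judged by their calls only, not by their intervals, and none changed sign. Their ratios also shifted with scaling. For Ctsk the log2 ratio of 1.02 became 1.14 under total counts and 1.61 with the epithelial markers at 0. Per kilobase of the longest transcript, an alternative chosen after seeing the data, Ctsl stood at 233 and 128 and Ctsa at 71.6 and 58.1 CPM, the last below Ctsk.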
